A study of Homo sapiens with 44 samples.

Results

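The genes described are 9 inhibitors and feedback regulators of the transcription factor NF-kB: NFKBIA, NFKBIB, NFKBIE, NFKBIZ, TNFAIP3, TNIP1, BIRC3, BCL3 and CYLD. They were taken by gene symbol from 2 RNA-seq tables, one of 25690 genes for HEK293-GR cells and one of 25689 gene symbols for A549 cells, and all 9 were present in both. The A549 table lists 26 transcripts of these genes, and the transcript with the most reads stood for each. All 9 also passed the minimum of 10 reads in at least 3 HEK293-GR libraries, with which 15594 genes were tested.

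The study lowered IRF2BP2, a transcriptional cofactor, and treated the cells with dexamethasone (dex), a synthetic glucocorticoid, or with the inflammatory cytokine TNF (tumour necrosis factor). HEK293-GR is 1 isogenic human embryonic kidney line in which every cell, the controls included, constitutively expresses a glucocorticoid receptor (GR) transgene, and A549 is a human lung adenocarcinoma line. Every RNA sample was kept in steroid-depleted medium for 72 h with 20 nM of an siRNA pool, either against IRF2BP2 (siIRF2BP2) or non-targeting (siNON), and then treated for 6 h. In HEK293-GR cells the 4 groups were siIRF2BP2 with 100 nM dex, siNON with 100 nM dex, siIRF2BP2 with ethanol vehicle and siNON with ethanol vehicle, with 3 libraries per group in the table. In A549 cells each siRNA was combined with 100 nM dex plus 10 ng/ml TNF, with 10 ng/ml TNF, with 100 nM dex or with vehicle, and the authors pooled the 3 samples of each group into 1 column, so the A549 values have no replicate spread here. The sample labels do not say that replicates came from separate cultures, so p-values measure the spread between these libraries, which may be technical in part. For the IRF2BP2 binding (ChIP) samples, HEK293-GR cells had 48 h in medium and then 1 h of 100 nM dex or vehicle. No siRNA is listed for them.

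In resting cells IkB proteins hold NF-kB in the cytoplasm. Signals from the TNF receptor are passed on through ubiquitin chains to the IkB kinase, which marks IkB proteins for destruction, and the freed NF-kB then switches on genes that include its own inhibitors. NFKBIA, NFKBIB and NFKBIE encode the cytoplasmic inhibitors IkB-alpha, IkB-beta and IkB-epsilon, while NFKBIZ and BCL3 encode nuclear IkB proteins that modulate NF-kB on DNA. TNFAIP3 encodes a ubiquitin-editing enzyme that damps TNF receptor signalling, TNIP1 its ubiquitin-binding partner, CYLD a deubiquitinase, and BIRC3 a ubiquitin ligase of the TNF receptor complex. GR is a hormone-activated transcription factor known for restraining inflammatory genes, and NFKBIA is a long-known glucocorticoid-induced gene.

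Sequencing depth was 18.2 to 28.5 M tags per HEK293-GR library and 35.8 to 56.9 M tags per pooled A549 column. IRF2BP2 itself, the targeted gene, averaged 10.4 ± 0.752 FPKM (reads per kilobase and per M tags, mean ± SD, n = 3) with siIRF2BP2 and 20.0 ± 0.605 FPKM with siNON under dex in HEK293-GR cells, and 12.7 ± 0.960 against 22.9 ± 2.41 FPKM under vehicle. In A549 cells its pooled FPKM was 17.9 against 25.4 under dex plus TNF, 21.4 against 26.3 under TNF, 22.9 against 31.3 under dex and 26.3 against 29.7 under vehicle, each time siIRF2BP2 before siNON. Of 7 A549 markers, 6 reached a mean of 1 FPKM in A549 cells and EPCAM stood at 0.817 FPKM, while 4 of these 7 did so in HEK293-GR cells too, EPCAM among them at 48.9 FPKM. Of 6 HEK293 markers, 5 did so in HEK293-GR cells and PAX2 stood at 0.93 FPKM, while 2 of the 6 did so in A549 cells. Summed endothelial markers stayed between 0.216 and 0.312 FPKM in HEK293-GR cells and between 0.013 and 0.03 FPKM in A549 cells. Of 5 blood cell markers, CD68 (17.1 FPKM) and CD14 (1.9 FPKM) reached 1 FPKM in A549 cells and CD68 (6.37 FPKM) in HEK293-GR cells, while PTPRC, which marks all white blood cells, stood at 0.000125 FPKM in A549 cells and 0.0112 FPKM in HEK293-GR cells. Of 4 fibroblast markers COL1A1 did so, at 3.01 FPKM in A549 cells and 5.83 FPKM in HEK293-GR cells. The part of other cells in the results was not tested. In these bulk samples fewer cells of a type and less RNA per cell cannot be told apart.

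On hg19, as the HEK293-GR table lists them, NFKBIA spans chr14:35870716-35873960 (minus strand), NFKBIB chr19:39390570-39399534 (plus), NFKBIE chr6:44225903-44233525 (minus), NFKBIZ chr3:101546834-101579869 (plus) and BCL3 chr19:45251978-45263301 (plus). TNFAIP3 spans chr6:138188325-138204451 (plus), TNIP1 chr5:150409504-150460645 (minus), CYLD chr16:50775961-50835846 (plus) and BIRC3 chr11:102188181-102210135 (plus). The values of each are of whole genes or transcripts, and those of overlapping genes may share reads.

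TNF raised all 9 genes in A549 cells with either siRNA, by the authors' deposited table at an FDR (false discovery rate) under 0.05. That is 9 of 9 genes, where 12.3% of all genes were higher and 12.3% lower with siIRF2BP2, and 6.62% higher and 6.14% lower with siNON. Among the 6845 genes at 1 FPKM or more, the shares were 24.6% with siIRF2BP2 and 11.4% with siNON. The members' median log2 fold change in the authors' deposited table was 2.36 with siIRF2BP2 and 2.16 with siNON, while the median of those 6845 genes was 0.049 and 0.014.

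Among the cytoplasmic inhibitors, NFKBIA had 147 pooled FPKM under TNF against 27.4 under vehicle with siIRF2BP2, and 143 against 26.2 with siNON, which made it the most abundant of the 9 per base of gene span. Its log2 fold change in the authors' deposited table was 2.58 with siIRF2BP2 and 2.57 with siNON. NFKBIE, the IkB-epsilon gene, had 5.44 against 1.21 FPKM with siIRF2BP2 and 7.24 against 1.74 FPKM with siNON. Both siRNAs thus gave a rise of NFKBIE, by 2.30 and 2.16 on the log2 scale of the authors' deposited table. NFKBIB, the IkB-beta gene, rose least of the cytoplasmic inhibitors, to 12 FPKM under TNF against 5.16 under vehicle with siIRF2BP2, and to 19.3 against 11.1 FPKM with siNON. The deposited log2 fold changes of NFKBIB by the authors were 1.38 with siIRF2BP2 and 0.92 with siNON.

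TNFAIP3 had the largest deposited rise of the 9, and its level under vehicle was low. It reached 19.6 pooled FPKM under TNF against 0.60 FPKM under vehicle with siIRF2BP2, and 14.5 against 0.993 FPKM with siNON. In the authors' deposited table this is a log2 fold change of 5.16 with siIRF2BP2 and 3.96 with siNON. TNIP1, whose product binds that of TNFAIP3, stood at 22.6 FPKM under TNF against 3.14 FPKM under vehicle with siIRF2BP2, and at 16.5 against 3.05 FPKM with siNON, or 2.98 and 2.57 on the log2 scale of the authors' deposited table. BIRC3 had 14.9 against 1.82 FPKM with siIRF2BP2 and 19.7 against 3.0 FPKM with siNON, and the authors' deposited table gives 3.18 and 2.79 for it. BIRC3, like NFKBIB, NFKBIE and NFKBIZ, had a lower pooled level under TNF with siIRF2BP2, unlike TNFAIP3, TNIP1 and CYLD. CYLD, the deubiquitinase, had 1.85 against 0.39 FPKM with siIRF2BP2 and 1.4 against 0.398 FPKM with siNON, deposited by the authors as 2.36 and 1.89.

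Both nuclear IkB genes rose with TNF as well. BCL3 had 28.5 FPKM under TNF against 14.9 under vehicle with siIRF2BP2, and 15 against 8.88 FPKM with siNON, with log2 fold changes of 1.1 and 0.90 in the authors' deposited table. NFKBIZ had 1.67 against 1.2 FPKM with siIRF2BP2 and 2.32 against 0.919 FPKM with siNON. NFKBIZ was the 1 member whose deposited rise by the authors was smaller with siIRF2BP2 (0.60) than with siNON (1.41). For the other 8 the deposited rise was larger with siIRF2BP2, most so for TNFAIP3. For NFKBIA, where it was nearly level, the log2 ratio of the pooled FPKM had the other order, at 2.42 with siIRF2BP2 and 2.44 with siNON. Whether any of these responses differed between the siRNAs was not tested, since the replicates are pooled.

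**Figure D1:**
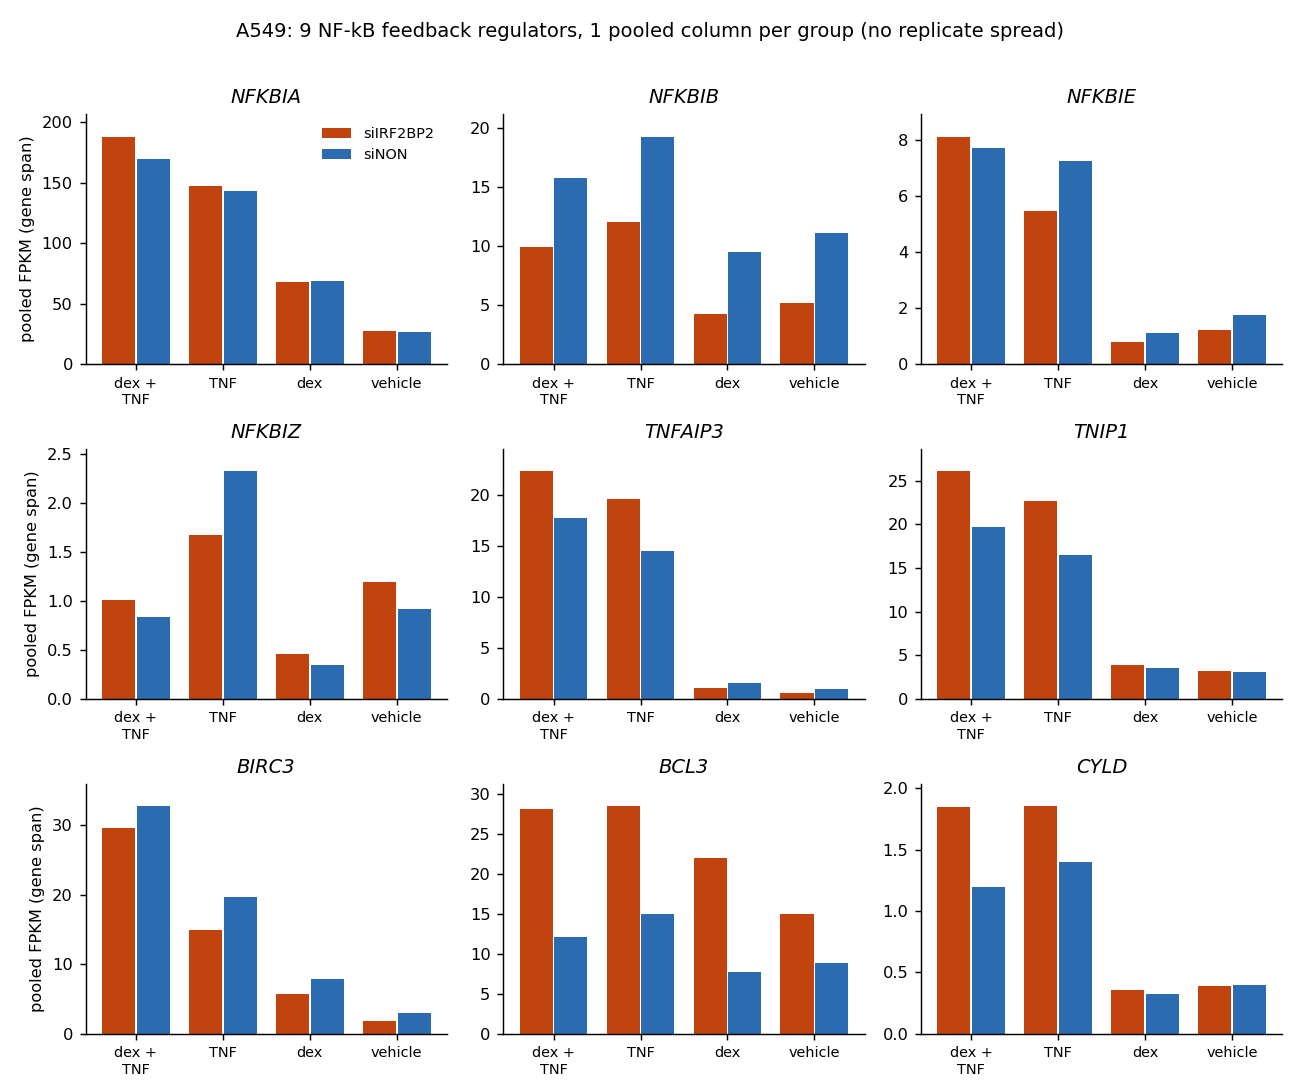
Pooled FPKM (y axes, per kilobase of gene span, each from 0) of the 9 genes in A549 cells under dex plus TNF, TNF, dex and vehicle (x axes), with siIRF2BP2 in orange left of siNON in blue. Each bar is 1 pooled column with no replicate spread; NFKBIA stands at 147 with siIRF2BP2 and 143 with siNON under TNF, and TNFAIP3 is at 1.60 or lower in all 4 columns without TNF.

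All 9 genes rose with TNF, by unlike amounts, and their promoters were read for the letters that NF-kB is known to bind. Windows of 300 bases, 250 before to 50 after a transcription start, were available from RefSeq (GRCh38.p14) for 8 of the 9 genes (all but NFKBIE), 13 windows in all. The kB consensus motif, 10 bases searched on both strands, was present in 10 of the 13 windows and in at least 1 window of each of the 8 genes. Across all RefSeq windows it was present in 5.91% of 35116, and 7.09% of 27305 genes had it. The full NFKBIA window and the stretches around the matches in the other genes are printed below 5′ to 3′ on the strand of the gene, with the matches in capitals.
NFKBIA, chr14:35404700-35404999, minus strand: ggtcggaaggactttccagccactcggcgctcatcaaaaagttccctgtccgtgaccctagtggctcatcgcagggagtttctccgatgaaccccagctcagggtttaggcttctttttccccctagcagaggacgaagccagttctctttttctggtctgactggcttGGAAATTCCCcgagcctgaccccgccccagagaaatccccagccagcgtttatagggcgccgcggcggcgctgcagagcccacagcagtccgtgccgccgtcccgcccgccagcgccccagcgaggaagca
NFKBIB, chr19:38899921-38899971, plus strand: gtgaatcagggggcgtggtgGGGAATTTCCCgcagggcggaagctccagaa
NFKBIZ, chr3:101827747-101827796, plus strand: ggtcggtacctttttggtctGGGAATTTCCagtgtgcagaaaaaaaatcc
NFKBIZ, chr3:101849264-101849304, plus strand: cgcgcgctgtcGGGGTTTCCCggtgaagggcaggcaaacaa
BCL3, chr19:44748690-44748739, plus strand: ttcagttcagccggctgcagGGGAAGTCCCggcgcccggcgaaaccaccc
TNFAIP3, chr6:137867172-137867233, plus strand: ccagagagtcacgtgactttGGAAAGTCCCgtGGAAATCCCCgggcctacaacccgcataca
TNIP1, chr5:151081047-151081096, minus strand: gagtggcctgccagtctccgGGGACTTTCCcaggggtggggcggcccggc
CYLD, chr16:50741877-50741926, plus strand: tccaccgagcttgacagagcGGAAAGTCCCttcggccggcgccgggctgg
CYLD, chr16:50742395-50742444, plus strand: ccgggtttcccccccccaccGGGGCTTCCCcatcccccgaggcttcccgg
BIRC3, chr11:102317265-102317378, plus strand: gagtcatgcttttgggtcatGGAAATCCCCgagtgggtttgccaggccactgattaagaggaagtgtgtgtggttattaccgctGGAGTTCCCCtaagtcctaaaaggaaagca
In NFKBIA the match lies 81 bases before the start, and in TNFAIP3 a pair of matches lies 67 and 55 bases before it. NFKBIB has 2 matches that overlap, 28 and 27 bases before its start, and TNIP1 has 1 at 42 bases. BIRC3 has 2 separate matches, at 199 and 135 bases. The consensus glucocorticoid element, a pair of inverted half-sites searched on both strands in its exact letters only, matched in 0 of the 13 windows. It matched in 0.0114% of all windows, so rarely that its absence from 13 windows says nothing about these genes. Looser elements and those outside the windows were not searched. A match is a run of letters only, and binding of NF-kB was not measured. The genes were chosen as NF-kB feedback regulators, so their share with a kB match beside that of all genes is not a test. The part of these matches in the TNF rises was not tested.

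Dex alone moved fewer of the genes in A549 cells, and in both directions. With siIRF2BP2, 5 of 9 rose and 2 fell in the authors' deposited table, where 8.74% of all genes rose and 6.96% fell. With siNON, 3 of 9 rose and 2 fell, where 4.1% of all genes rose and 2.85% fell. Among genes at 1 FPKM or more, 15.5% rose and 11.7% fell with siIRF2BP2, and 6.11% rose and 4.22% fell with siNON. BIRC3, NFKBIA and TNFAIP3 rose with both siRNAs, and NFKBIZ and NFKBIE fell with both. The dex and TNF comparisons of a given siRNA share the vehicle column.

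BIRC3 had 5.65 pooled FPKM under dex against 1.82 under vehicle with siIRF2BP2, and 7.90 against 3.0 FPKM with siNON, with log2 fold changes of 1.68 and 1.49 in the authors' deposited table. NFKBIA had 67.7 against 27.4 FPKM with siIRF2BP2 and 68.4 against 26.2 FPKM with siNON, deposited by the authors as 1.38 and 1.45. TNFAIP3 had 1.11 against 0.60 FPKM with siIRF2BP2 and 1.60 against 0.993 FPKM with siNON, deposited by the authors as 0.95 and 0.70. All 3 had a larger TNF than dex response in these columns. NFKBIZ went the other way, with 0.462 FPKM under dex against 1.2 under vehicle with siIRF2BP2 and 0.349 against 0.919 FPKM with siNON, or -1.32 and -1.38 in the authors' deposited table. NFKBIE had 0.772 against 1.21 FPKM with siIRF2BP2 and 1.09 against 1.74 FPKM with siNON, or -0.58 and -0.67 in the authors' deposited table.

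BCL3 and TNIP1 passed the authors' FDR under dex with siIRF2BP2 and not with siNON, and the difference between the siRNAs was not tested. BCL3 had 21.9 pooled FPKM under dex against 14.9 under vehicle with siIRF2BP2 and 7.69 against 8.88 FPKM with siNON. Its log2 fold changes in the authors' deposited table were 0.58 (FDR 1.44e-06) with siIRF2BP2 and -0.16 (FDR 0.894) with siNON. For TNIP1 the authors' deposited table gives 0.36 (FDR 7.2e-10) with siIRF2BP2 and 0.28 (FDR 0.3) with siNON. NFKBIB and CYLD passed with neither siRNA.

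**Figure D2:**
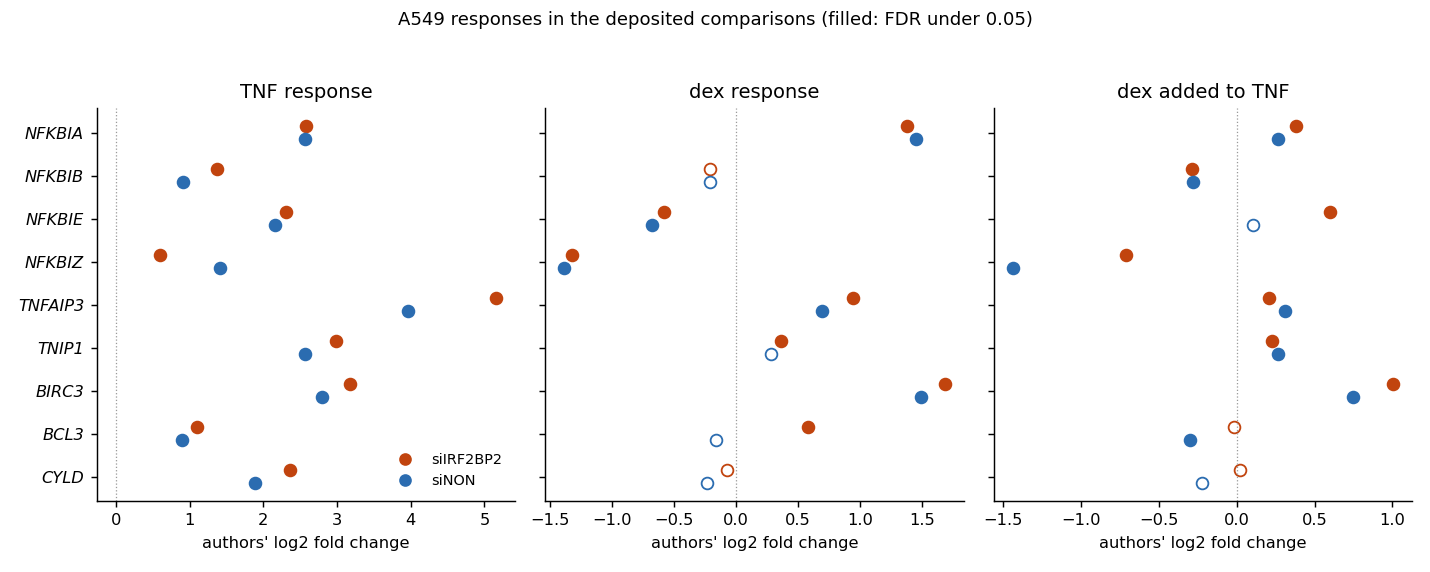
Log2 fold changes of the authors' deposited table (x axes) for the 9 genes (rows) in A549 cells: TNF over vehicle, dex over vehicle, and dex plus TNF over TNF. Orange points, drawn above, are siIRF2BP2 and blue points siNON, filled where the authors' FDR is under 0.05; all 18 TNF points lie right of 0, from 0.60 for NFKBIZ to 5.16 for TNFAIP3, both with siIRF2BP2.

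Adding dex to TNF left most of the TNF rise in place. With siIRF2BP2, 5 of 9 genes were higher and 2 lower under dex plus TNF than under TNF in the authors' deposited table, where 8.7% of all genes were higher and 7.35% lower. With siNON, 4 of 9 were higher and 3 lower, where 6.11% of all genes were higher and 4.83% lower. Among genes at 1 FPKM or more, 14.3% were higher and 13% lower with siIRF2BP2, and 10.1% higher and 7.49% lower with siNON. BIRC3 had 29.6 pooled FPKM under dex plus TNF against 14.9 under TNF with siIRF2BP2, and 32.8 against 19.7 FPKM with siNON, its log2 fold changes being 1.01 and 0.75 in the authors' deposited table. NFKBIA had 188 against 147 FPKM with siIRF2BP2 and 170.0 against 143 FPKM with siNON, deposited by the authors as 0.38 and 0.26. With each siRNA these 2 genes thus had their highest pooled A549 level under the combined treatment, as did NFKBIE, TNFAIP3 and TNIP1. TNFAIP3 (0.21 with siIRF2BP2, 0.31 with siNON) and TNIP1 (0.22 and 0.26) also passed as higher in the authors' deposited table.

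NFKBIZ was lower under the combination, at 1.01 against 1.67 FPKM with siIRF2BP2 and 0.84 against 2.32 FPKM with siNON, or -0.71 and -1.44 in the authors' deposited table. Under dex plus TNF it therefore stood near its vehicle level, with log2 fold changes over vehicle of -0.12 (FDR 0.28) with siIRF2BP2 and -0.05 (FDR 1) with siNON in the authors' deposited table. NFKBIB was lower as well, by -0.29 and -0.28 in the authors' deposited table. NFKBIE passed as higher with siIRF2BP2, at 8.11 against 5.44 FPKM (0.60 in the authors' deposited table), while with siNON it was at 7.68 against 7.24 FPKM (0.10, FDR 0.752). BCL3 passed as lower with siNON, at 12.1 against 15 FPKM (-0.30, FDR 0.0356 in the authors' deposited table), and stood at 28.1 against 28.5 FPKM with siIRF2BP2. CYLD passed with neither siRNA.

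In HEK293-GR cells, where each library has its own value, dex raised NFKBIA, BIRC3 and TNFAIP3 and lowered NFKBIZ with both siRNAs. With siIRF2BP2, 3 of 9 genes rose and 1 fell (limma, adjusted p under 0.05), where 5.86% of all genes tested rose and 4.59% fell. With siNON, 3 of 9 rose and 2 fell, where 10.9% rose and 9.82% fell. FPKM in this table is per kilobase of exon, so levels cannot be set beside those of A549 cells, whose lengths hold the introns.

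NFKBIA had 50.7, 55.4 and 44.6 FPKM in the dex libraries with siIRF2BP2, against 18.4, 19.7 and 20.8 FPKM in the vehicle libraries. With siNON it had 57.2, 55.7 and 55.6 FPKM under dex, against 16.1, 15.9 and 15.2 FPKM under vehicle. The dex and vehicle libraries lay far apart for both siRNAs. The log2 fold change was 1.34 ± 0.08 (± SE, limma adjusted p = 4.26e-09) with siIRF2BP2 and 1.83 ± 0.08 (limma adjusted p = 6.43e-11) with siNON. The response was smaller with siIRF2BP2 by 0.49 ± 0.11 on the log2 scale, a difference of -0.49 with a 95% interval of -0.72 to -0.25. That difference had an unadjusted p of 0.000523 and did not pass over all genes (limma adjusted p = 0.302). NFKBIA was the 1 member of 9 with an unadjusted p under 0.05, as were 805 of all 15594 genes, and 2 genes (0.0128%) but 0 members passed the adjustment. Per base of exon NFKBIA held 0.298 to 1.27 reads in these 12 libraries, and the densest HEK293-GR gene of at least 500 bases held 2.62 to 2.85, whereas in A549 columns the densest held 142 or more. The part of such an upper level in the NFKBIA fold changes was not tested.

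BIRC3 had the largest dex ratio of the 9 with siIRF2BP2. It stood at 3.52, 2.62 and 2.58 FPKM in dex libraries with siIRF2BP2, against 0.567, 0.638 and 0.418 FPKM in vehicle libraries. With siNON it stood at 1.95, 1.89 and 1.57 FPKM under dex, against 0.33, 0.486 and 0.574 FPKM under vehicle. No dex library overlapped a vehicle library. The log2 fold change was 2.23 ± 0.19 with siIRF2BP2 (limma adjusted p = 3.6e-07) and 1.78 ± 0.19 with siNON (limma adjusted p = 4.01e-06), and the difference of 0.46 ± 0.27 did not pass (limma adjusted p = 0.794).

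TNFAIP3 had 4.19, 4.60 and 4.45 FPKM in dex libraries with siIRF2BP2, against 2.03, 2.18 and 1.90 FPKM in vehicle libraries. With siNON it had 3.32, 3.29 and 3.80 FPKM under dex, against 1.57, 1.55 and 1.71 FPKM under vehicle. Its 4 groups did not overlap, so that dex with siIRF2BP2 was highest and vehicle with siNON lowest. The log2 fold change was 1.08 ± 0.11 with siIRF2BP2 (limma adjusted p = 2.66e-06) and 1.06 ± 0.11 with siNON (limma adjusted p = 2.49e-06). The difference of these responses was 0.02, with a 95% interval of -0.31 to 0.35.

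NFKBIZ fell with dex, as it did in A549 cells. It had 1.99, 2.21 and 2.18 FPKM in dex libraries with siIRF2BP2, against 3.38, 3.40 and 3.23 FPKM in vehicle libraries. With siNON it had 1.52, 1.91 and 1.41 FPKM under dex, against 3.13, 2.40 and 2.75 FPKM under vehicle. Every dex library lay below every vehicle library of the same siRNA. The log2 fold change was -0.63 ± 0.13 with siIRF2BP2 (limma adjusted p = 0.00379) and -0.74 ± 0.13 with siNON (limma adjusted p = 0.000701). NFKBIZ overlaps NXPE3 in the annotation, a gene at 7.9 FPKM on average, so reads of the overlap may be shared.

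BCL3, at 25 to 54 reads per library the gene of the 9 with the fewest reads, fell with siNON, to 0.666, 0.691 and 0.823 FPKM under dex against 1.3, 1.24 and 0.909 FPKM under vehicle. The log2 fold change was -0.58 ± 0.16 (limma adjusted p = 0.0138). It no longer passed without siNON dex replicate 1 (limma adjusted p = 0.0586) or replicate 2 (limma adjusted p = 0.051), nor in the authors' deposited comparison (FDR 0.181). With siIRF2BP2 it had 0.890, 0.887 and 0.983 FPKM under dex against 1.05, 0.919 and 1.07 FPKM under vehicle, groups that overlap (-0.12 ± 0.16, limma adjusted p = 0.8). The other 4 genes did not pass with either siRNA when all 12 libraries were used. CYLD with siNON, at -0.21 ± 0.11 (limma adjusted p = 0.208), passed as lower without siNON vehicle replicate 1 (-0.34, limma adjusted p = 0.0273). Across all 12 libraries NFKBIB ranged over 20.3 to 27.4 FPKM, NFKBIE over 4.18 to 5.57 FPKM, TNIP1 over 22.4 to 30.3 FPKM and CYLD over 4.32 to 6.61 FPKM. TNIP1 with siNON came nearest, at 0.21 ± 0.08 (limma adjusted p = 0.0964).

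**Figure D3:**
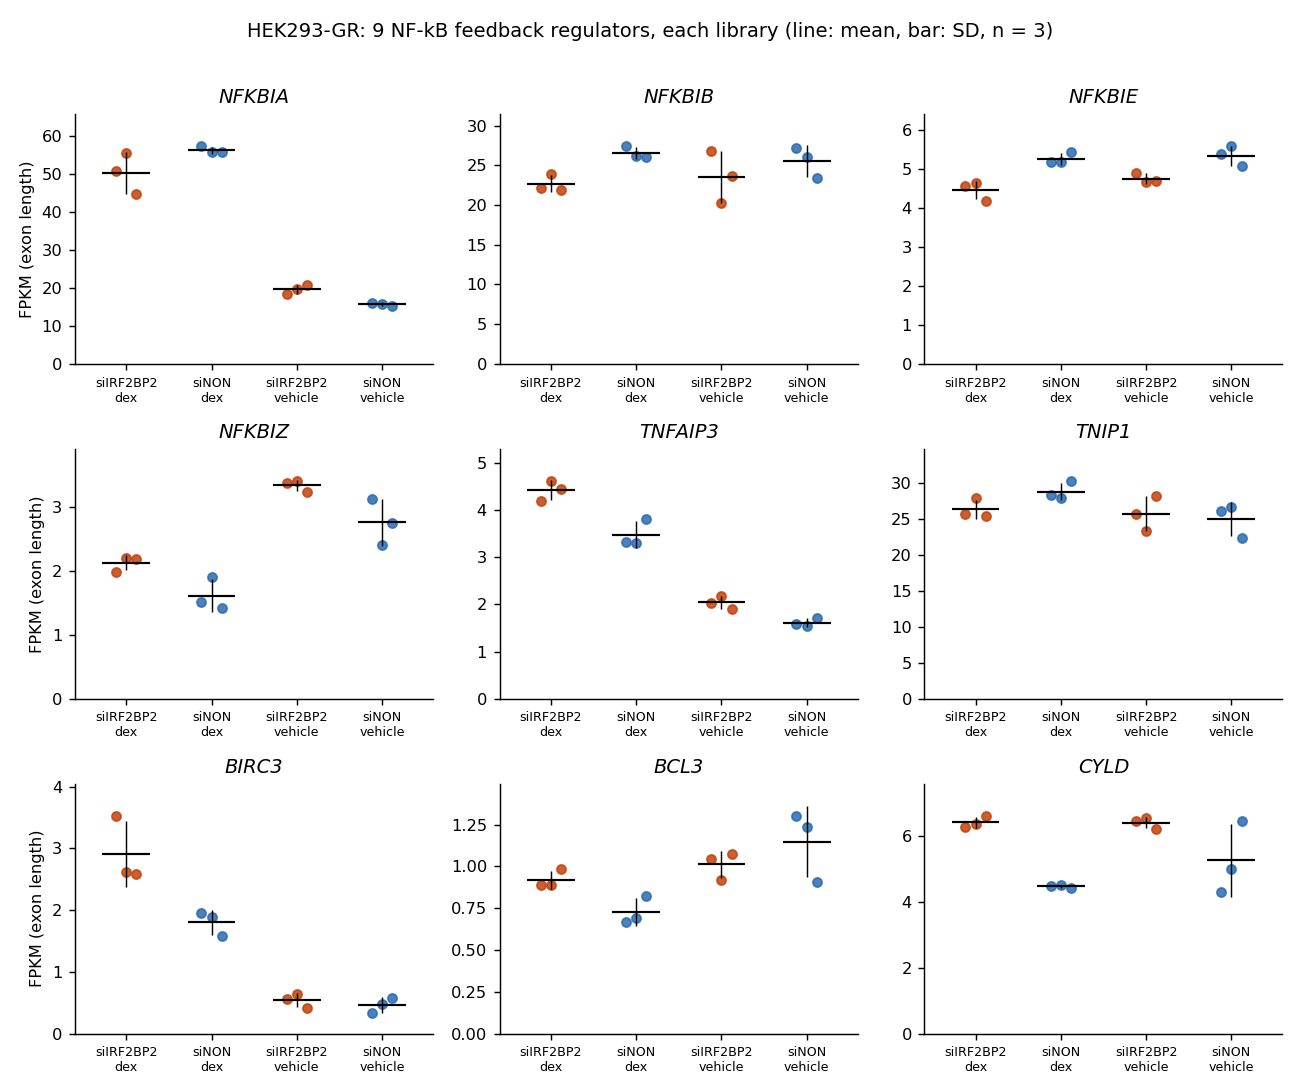
FPKM (y axes, per kilobase of exon, from 0) of the 9 genes in every HEK293-GR library, by group (x axes), with siIRF2BP2 in orange and siNON in blue. Points are libraries, horizontal lines means and vertical lines the SD (n = 3); NFKBIA is at 44.6 to 57.2 FPKM in the 6 dex libraries and at 15.2 to 20.8 FPKM in the 6 vehicle libraries.

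Knockdown of IRF2BP2 in HEK293-GR cells under dex raised BIRC3, CYLD, NFKBIZ and TNFAIP3 and lowered NFKBIE. That is 4 of 9 genes higher and 1 of 9 lower (limma, adjusted p under 0.05), where 22.4% of all genes tested were higher and 17.3% lower. The members' median log2 fold change was 0.307 and that of all genes 0. Under vehicle 1 of 9 genes, NFKBIA, was higher and 0 lower, where 8% of all genes were higher and 7.48% lower.

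CYLD was the clearest of these. Under dex it had 6.27, 6.38 and 6.61 FPKM with siIRF2BP2 against 4.50, 4.52 and 4.43 FPKM with siNON, a gap far wider than the spread in either group. The log2 fold change was 0.51 ± 0.11 (limma adjusted p = 0.0031), and it passed under every alternative run, the leaving out of each library included. Under vehicle the values were 6.45, 6.55 and 6.22 FPKM against 4.32, 5.00 and 6.47 FPKM, and siNON vehicle replicate 3 overlapped the siIRF2BP2 libraries. The vehicle log2 fold change of 0.30 ± 0.11 did not pass (limma adjusted p = 0.0857), and without that library it was 0.45 and passed (limma adjusted p = 0.00136).

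BIRC3 under dex stood at 2.58 to 3.52 FPKM with siIRF2BP2 against 1.57 to 1.95 FPKM with siNON, the libraries given above, with a log2 fold change of 0.65 ± 0.19 (limma adjusted p = 0.0146). The call was lost without siIRF2BP2 dex replicate 1 (limma adjusted p = 0.0797) or siNON dex replicate 3 (limma adjusted p = 0.0664). Under vehicle the groups overlapped (0.20 ± 0.19, limma adjusted p = 0.511). TNFAIP3 did not overlap between siRNAs under either treatment, with nearly the same size of difference. Its log2 fold change was 0.34 ± 0.11 under dex (limma adjusted p = 0.023) and 0.32 ± 0.11 under vehicle (limma adjusted p = 0.0594). The dex call of TNFAIP3 was lost without siIRF2BP2 dex replicate 2 or 3 or siNON dex replicate 1 or 2 (limma adjusted p from 0.0628 to 0.0838), and its vehicle change passed without siNON vehicle replicate 3 (limma adjusted p = 0.0265). NFKBIZ rose by 0.39 ± 0.13 under dex (limma adjusted p = 0.0301), a call lost without siIRF2BP2 dex replicate 2 or 3 or siNON dex replicate 1 or 3 (limma adjusted p from 0.0809 to 0.132). Under vehicle its change was 0.27 ± 0.13 (limma adjusted p = 0.171). With quantile normalization the dex changes of TNFAIP3 (0.22) and NFKBIZ (0.29) no longer passed.

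The cytoplasmic inhibitors were level or lower with siIRF2BP2 under dex. NFKBIE had 4.45 ± 0.236 FPKM with siIRF2BP2 and 5.25 ± 0.153 FPKM with siNON (mean ± SD, n = 3 each), libraries that did not overlap, with a log2 fold change of -0.24 ± 0.08 (limma adjusted p = 0.0376). This call was lost when any 1 of the 6 dex libraries was left out (limma adjusted p from 0.0513 to 0.143), with the replicate number as a block (limma adjusted p = 0.0675) and in the authors' deposited comparison (FDR 0.0512). NFKBIB (-0.23 ± 0.09, limma adjusted p = 0.0567) and NFKBIA (-0.17 ± 0.08, limma adjusted p = 0.106) did not pass, and these calls turned on the settings. Both passed as lower with median-of-ratios scaling (limma adjusted p = 0.0309 for NFKBIB and 0.0361 for NFKBIA) and in the authors' deposited comparison (FDR 0.000418 and 0.0163). NFKBIB also passed in a fit of only the groups compared (limma adjusted p = 0.00615) and without siIRF2BP2 vehicle replicate 1 or 2 or siNON vehicle replicate 3 (limma adjusted p from 0.0253 to 0.0362), and NFKBIA without siIRF2BP2 dex replicate 2 (-0.24, limma adjusted p = 0.0314). For NFKBIA the sign was the opposite under vehicle, where it had 18.4, 19.7 and 20.8 FPKM with siIRF2BP2 against 16.1, 15.9 and 15.2 FPKM with siNON, a log2 fold change of 0.32 ± 0.08 (limma adjusted p = 0.0142). The vehicle call of NFKBIA was lost without siIRF2BP2 vehicle replicate 3 (limma adjusted p = 0.0537), in a fit of only the groups compared (limma adjusted p = 0.0598) and in the authors' deposited comparison (FDR 0.177). BCL3 (0.31 ± 0.16 under dex, -0.15 ± 0.16 under vehicle) and TNIP1 (-0.13 ± 0.08 and 0.04 ± 0.08) did not pass under either treatment in limma, though TNIP1 under dex passed as lower in the authors' deposited comparison (-0.15, FDR 0.0292).

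**Figure D4:**
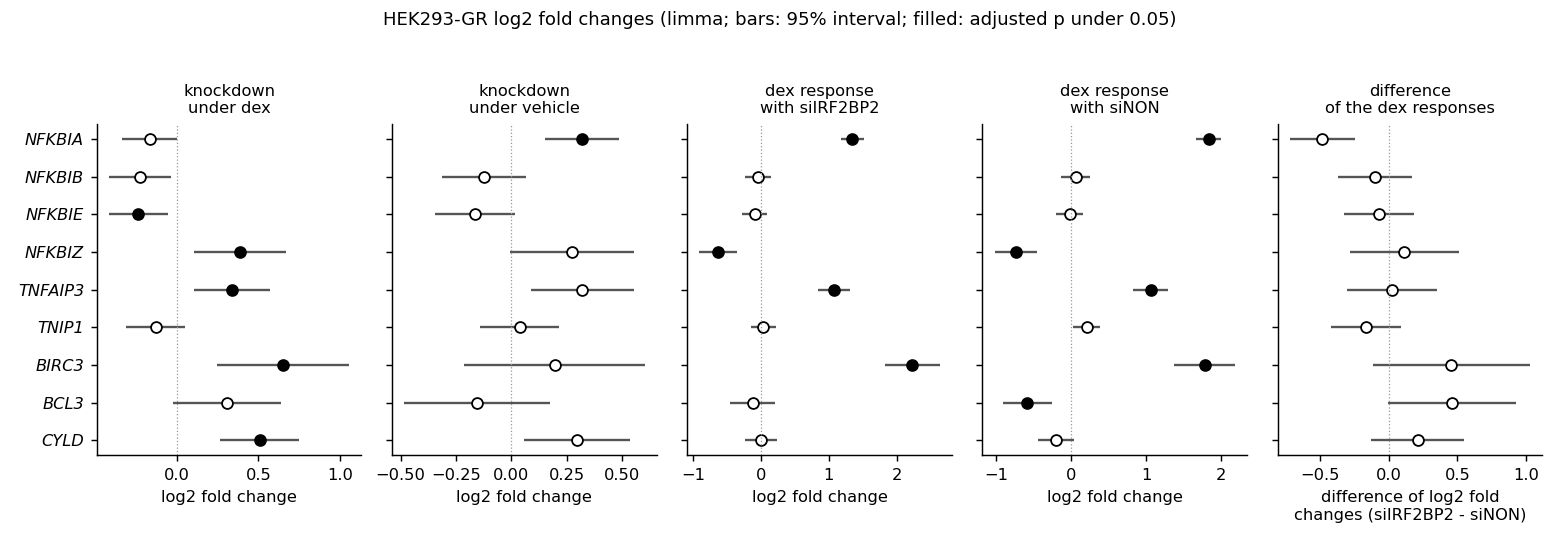
Log2 fold changes with 95% intervals (x axes, limma) of the 9 genes (rows) in 5 HEK293-GR comparisons: knockdown under dex, knockdown under vehicle, dex with siIRF2BP2, dex with siNON, and the difference of the dex responses. Filled points passed the adjusted threshold; NFKBIA is filled at 1.34 and 1.83 in the dex panels and open at -0.49 in the last panel.

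In A549 cells the knockdown moved the members in both directions, by the authors' deposited table. Under vehicle and under dex, 1 of 9 was higher and 4 of 9 were lower, where 10.6% of all genes were higher and 11.8% lower under vehicle, and 9.95% and 10.8% under dex. Under TNF 4 were higher and 4 lower, where 12.8% of all genes were higher and 12.5% lower. Under dex plus TNF 4 were higher and 1 lower, where 11.7% of all genes were higher and 11.8% lower. Among genes at 1 FPKM or more these shares rise to between 15% and 22.9% higher and between 22.2% and 24.6% lower. The deposited log2 fold changes lay below the log2 ratios of the pooled FPKM by a median of 0.112 under vehicle and dex (a shift of -0.112), and above them by 0.122 for TNF with siIRF2BP2 and 0.132 for dex plus TNF with siIRF2BP2.

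BCL3 and NFKBIB kept 1 direction under all 4 treatments, and opposite ones. BCL3 was higher with siIRF2BP2, at 28.1 against 12.1 pooled FPKM under dex plus TNF, 28.5 against 15 under TNF, 21.9 against 7.69 under dex and 14.9 against 8.88 under vehicle. The authors' deposited table has for it log2 fold changes of 1.11, 0.83, 1.35 and 0.62 in that order. BCL3 after siIRF2BP2 was thus above its siNON level under the same treatment each time, and its siIRF2BP2 vehicle value of 14.9 FPKM was close to the siNON TNF value of 15 FPKM. NFKBIB was lower, at 9.95 against 15.7, 12 against 19.3, 4.25 against 9.47 and 5.16 against 11.1 pooled FPKM. The authors' deposited table gives -0.77, -0.77, -1.24 and -1.23 for NFKBIB.

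BIRC3 was lower with siIRF2BP2 under TNF (-0.52), dex (-0.73) and vehicle (-0.91) in the authors' deposited table, and under dex plus TNF it stood at 29.6 against 32.8 FPKM (-0.26, FDR 0.0571). NFKBIE was lower under TNF (-0.50), dex (-0.56) and vehicle (-0.65) in the authors' deposited table, and level under dex plus TNF (8.11 against 7.68 FPKM, FDR 1). TNFAIP3 passed in all 4 comparisons with 2 directions. It was higher with siIRF2BP2 where TNF was given, at 22.3 against 17.8 FPKM under dex plus TNF and 19.6 against 14.5 FPKM under TNF, and lower where it was not, at 1.11 against 1.60 FPKM under dex and 0.60 against 0.993 FPKM under vehicle. Its log2 fold changes in the authors' deposited table were 0.24, 0.34, -0.62 and -0.87 in that order.

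TNIP1 and CYLD passed as higher where TNF was given and did not pass without it. For TNIP1 the authors' deposited table gives 0.35 under dex plus TNF and 0.38 under TNF, and for CYLD 0.56 and 0.31. NFKBIZ passed only as lower under TNF, at 1.67 against 2.32 FPKM (-0.57, FDR 1.28e-09, in the authors' deposited table), while under dex, vehicle and dex plus TNF its pooled FPKM was higher with siIRF2BP2 without passing (FDR from 0.0736 to 0.563). NFKBIA passed in none of the 4, with deposited log2 fold changes of the authors of 0.06 under dex plus TNF, -0.06 under TNF, -0.15 under dex and -0.08 under vehicle. With the pooled FPKM ratio the signs of NFKBIA under TNF (0.04) and vehicle (0.06) turned.

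**Figure D5:**
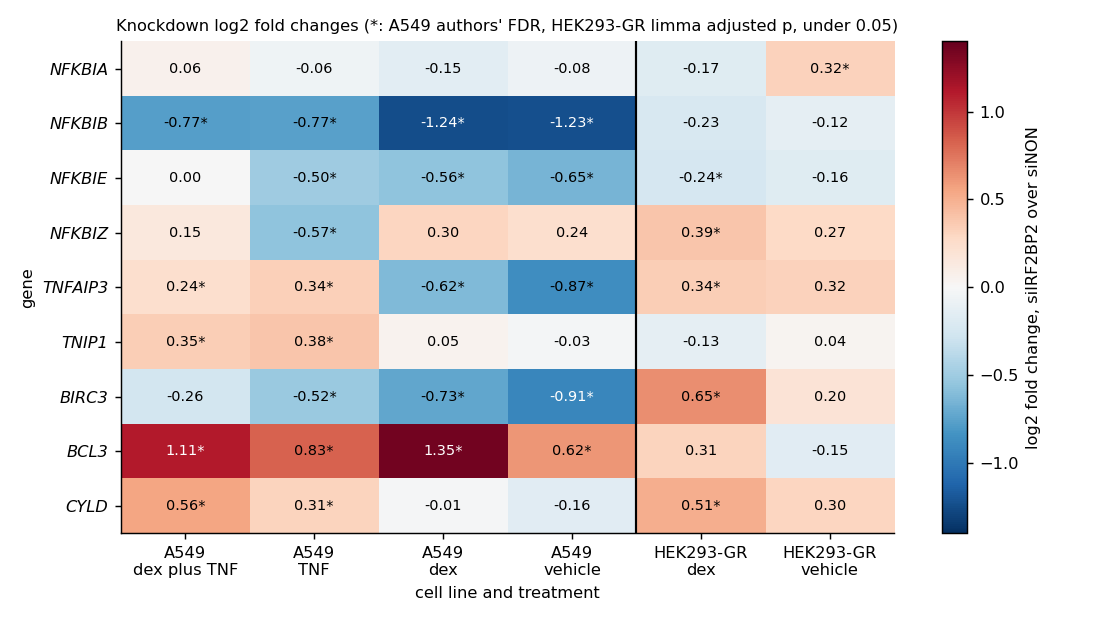
Log2 fold changes of siIRF2BP2 over siNON (colour and printed value) for the 9 genes (rows) in 4 A549 and 2 HEK293-GR treatments (columns). Stars mark an FDR under 0.05 in the authors' deposited table (A549) or a limma adjusted p under 0.05 (HEK293-GR); the BCL3 row is red across the 4 A549 columns (0.62 to 1.35) and the NFKBIB row blue (-0.77 to -1.24).

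Set side by side, the knockdown values of the lines shared some signs and not others. Under dex BIRC3 was at 0.65 in HEK293-GR cells (limma) and at -0.73 in the authors' deposited table for A549 cells, and TNFAIP3 was at 0.34 and at -0.62. NFKBIE was lower in both, at -0.24 in HEK293-GR cells (limma) and -0.56 in the authors' deposited table for A549 cells. CYLD was at 0.51 in HEK293-GR cells (limma), while the A549 value in the authors' deposited table was -0.01 (FDR 1). The HEK293-GR calls of BIRC3, TNFAIP3 and NFKBIE were each lost on leaving out some single libraries, as given above. The lines also differ in the length that FPKM is scaled to and in who made the test. No test across the lines was possible, since the A549 replicates are pooled. NFKBIA, BIRC3 and TNFAIP3 rose and NFKBIZ fell with dex in both lines and with both siRNAs.

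Likeness of profile was measured by Pearson's r of log2(FPKM + 0.1) over 12 HEK293-GR libraries among 2923 genes and over 8 A549 columns among 2045 genes, as a description. Points of a line share treatments and siRNAs, so genes that answer dex or TNF correlate. In HEK293-GR cells the genes most like NFKBIA were the glucose transporter gene SLC2A3 (0.998), LOC102724484 (0.995) and the cell cycle inhibitor gene CDKN1A (0.994), and those most like TNFAIP3 were FAM49A (0.989), CTTNBP2 (0.987) and PRKAB2 (0.984). BIRC3 correlated with TNFAIP3 at 0.965, with 26 genes higher, and NFKBIA did so at 0.942, with 72 higher. NFKBIZ ran the other way, at -0.695 with TNFAIP3 (2604 genes higher) and -0.834 with NFKBIA (2709 higher). In A549 cells the genes most like NFKBIA were PNRC1 (0.978), the member BIRC3 (0.973) and CFLAR (0.963), an inhibitor of death receptor signalling. Those most like TNFAIP3 in A549 cells were PTP4A3 (0.993), its partner gene TNIP1 (0.990) and GCH1 (0.986). Least like NFKBIA of the members there were NFKBIZ (0.264), BCL3 (0.504) and NFKBIB (0.551). The same members were least like TNFAIP3, NFKBIZ at 0.509, BCL3 at 0.487 and NFKBIB at 0.717. Members of the set were among the 3 nearest genes in A549 columns and not in HEK293-GR libraries. Only A549 cells were given TNF. A log2 range of at least 1 was required, which in HEK293-GR libraries only NFKBIA, NFKBIZ, TNFAIP3 and BIRC3 reached, while in A549 columns every member did. The part of these conditions in the difference was not tested.

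Other genes of the pathway give the surroundings of these 9. All 5 NF-kB subunit genes (NFKB1, NFKB2, REL, RELA and RELB) rose with TNF in the authors' deposited A549 table with either siRNA. Their median log2 fold change was 2.19 with siIRF2BP2 and 2.22 with siNON. Of all genes, 12.3% rose with TNF with siIRF2BP2 and 6.62% with siNON. NFKB2, a precursor subunit, had 77.2 pooled FPKM under TNF against 7.34 under vehicle with siIRF2BP2 and 77.1 against 12.6 FPKM with siNON. With dex added to TNF 4 of the 5 were lower and 0 higher in the authors' deposited table with either siRNA, where 8.7% of all genes were higher and 7.35% lower with siIRF2BP2 and 6.11% higher and 4.83% lower with siNON. Among the 9 feedback genes 5 were higher and 2 lower with siIRF2BP2 and 4 higher and 3 lower with siNON, and the difference between the lists was not tested. NFKB2 then stood at 57.6 against 77.2 FPKM with siIRF2BP2 and 57.6 against 77.1 FPKM with siNON. Knockdown under vehicle lowered 3 of the 5 (NFKB2, REL and RELB), with NFKB2 at 7.34 against 12.6 FPKM (-0.90 in the authors' deposited table). In that comparison 10.6% of all genes were higher and 11.8% lower. Among genes at 1 FPKM or more, 16% were higher and 24.6% lower. In HEK293-GR cells 0 of the 5 passed with dex with either siRNA. Of all genes tested there, 5.86% rose and 4.59% fell with siIRF2BP2, and 10.9% rose and 9.82% fell with siNON. With knockdown under dex 1 of the 5, REL, passed as higher, where 22.4% of all genes were higher and 17.3% lower. REL had 3.10 against 1.69 FPKM (0.83 ± 0.22, limma adjusted p = 0.00837).

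The 3 genes of the IkB kinase complex had a median log2 fold change with TNF of 0.242 with siIRF2BP2 and 0.121 with siNON in the authors' deposited table. With siIRF2BP2 IKBKB was at 0.53 (FDR 7.86e-10) and IKBKG at 0.24 (FDR 0.0161). With TNF 2 of 3 rose with siIRF2BP2 and 0 with siNON in the authors' deposited table. Of all genes, 12.3% rose and 12.3% fell with siIRF2BP2, and 6.62% rose and 6.14% fell with siNON. At 1 FPKM or more, 24.6% rose and 15.6% fell with siIRF2BP2, and 11.4% rose and 7.96% fell with siNON. In HEK293-GR cells CHUK, a catalytic subunit, rose with knockdown under dex, to 17.4 against 13.3 FPKM (0.39 ± 0.09, limma adjusted p = 0.00404). Of 14 TNF receptor and adaptor genes, 10 rose and 1 fell with TNF in the authors' deposited table with siIRF2BP2. With siNON 7 rose and 1 fell. The shares of all genes are those given above for the IkB kinase genes. TRAF1, an adaptor, had 0.627 against 0.221 FPKM with siIRF2BP2 and 0.752 against 0.186 FPKM with siNON. In HEK293-GR cells 4 of the 14 rose and 4 fell with knockdown under dex, near the shares of all genes (22.4% higher and 17.3% lower). Among those that rose was BIRC2, the paralog of BIRC3, at 9.25 against 6.20 FPKM (0.56 ± 0.15, limma adjusted p = 0.00772).

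A list of 18 other negative regulators and binding partners had 17 genes in the A549 table. With TNF 11 of these rose and 2 fell with siIRF2BP2 in the authors' deposited table, and 7 rose and 1 fell with siNON. Of all genes, 12.3% rose and 12.3% fell with siIRF2BP2, and 6.62% rose and 6.14% fell with siNON. TSC22D3, a glucocorticoid-induced inhibitor also known as GILZ, had 5.15 FPKM under dex against 0.45 under vehicle with siIRF2BP2 and 6.61 against 1.06 FPKM with siNON in A549 cells. Knockdown under vehicle left TSC22D3 lower in A549 cells, at 0.45 against 1.06 FPKM (-1.4 in the authors' deposited table). SPATA2, the adaptor that ties CYLD to the TNF receptor complex, was higher after knockdown in all 4 A549 comparisons of the authors' deposited table, by 0.86 under dex plus TNF, 0.64 under TNF, 0.73 under dex and 0.63 under vehicle. SPATA2 rose in HEK293-GR cells too, to 12.1 against 9.29 FPKM under dex (0.38 ± 0.08, limma adjusted p = 0.0025) and to 9.09 against 6.55 FPKM under vehicle (0.47 ± 0.08, limma adjusted p = 0.00186). Of the 16 listed genes that passed the minimum in HEK293-GR cells, 3 rose and 2 fell with knockdown under dex, where 22.4% of all genes rose and 17.3% fell.

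IRF2BP2 binding was read from ChIP peaks of HEK293-GR cells after 1 h of dex (1400 peaks) or vehicle (1108 peaks), with 2 samples per group and hg19 positions from the authors. Of the 9 genes, 2 had a dex peak within 50 kb of the gene start and 1 a vehicle peak, where 5.21% and 4.34% of all genes had one. BCL3 held a peak inside the gene in both lists, at chr19:45256503-45256834 under dex and chr19:45256552-45256894 under vehicle, 4.69 and 4.75 kb after the gene start. BIRC3 had a dex peak at chr11:102177015-102177346, at -11 kb from its start, and its nearest vehicle peak lay beyond the 100 kb searched. TNFAIP3 had a dex peak at -90.2 kb from its start. The other 6 genes had no peak within 100 kb in either list. Peak positions carry no height here, and no change between dex and vehicle was tested.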

How the data were processed

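Sample groups came from the labels. Per the submitters' processing notes, the RNA tools were TopHat2, Bowtie2, Trimmomatic 0.33, FastQC, edgeR and HOMER. The ChIP tools were HOMER 4.10.3, bedtools, Bowtie 0.12.9 and FastQC, and the build was hg19. Both RNA tables hold FPKM, per the file headers, scaled by the authors to row length and total tags. Length is the genomic span in 98.6% of A549 transcripts, so intronic reads count there. The deposited log2 fold changes, p-values and FDR are the authors' own; the test behind them is not given in the sources used here, and an FDR printed as 1 stands so in the file. Peaks carry a constant score of 1 as deposited, and their positions alone entered. For 4 HEK293-GR samples (replicate 4 of each group) the table has no column, and they were not analysed here.

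FPKM times length gave whole reads (within 0.01 reads beyond rounding) for 100% of the values checked, and with them the depths. For HEK293-GR cells, limma 3.58.1 (trend) in R 4.3.3 tested log2(FPKM + 0.1), a scale that understates the change of low genes. All 12 libraries entered 1 fit (8 residual degrees of freedom), over the genes that reached 10 reads in 3 or more, with Benjamini-Hochberg adjustment over all 15594 genes. The fit was tested on simulated data. Libraries of a group correlated at 0.988 to 0.996. The columns have no batch label. The members, gene lists and tests were chosen with earlier results of these data known; all 9 members are named, and of each list up to 4 genes with the smallest adjusted p or FDR were eligible. Alternatives were other pseudocounts, scalings, filters and fits, the replicate number as a block, leaving out each library, the pooled FPKM ratio, another transcript, FDR 0.01 and other peak windows.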

Additional observations from a re-analysis of the deposited data

Results flagged for a closer look

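Knockdown values that passed had opposite signs between the lines under dex for BIRC3 and TNFAIP3, and between treatments within A549 cells for TNFAIP3. No difference was tested, since the A549 replicates are pooled. BIRC3 under dex was at -0.73 in A549 cells, in the authors' deposited table, and at 0.65 in HEK293-GR cells (limma). TNFAIP3 in the authors' deposited A549 table was at 0.24 under dex plus TNF and 0.34 under TNF, and at -0.62 under dex and -0.87 under vehicle. In HEK293-GR cells TNFAIP3 was at 0.34 under dex (limma). Of 12 runs that each left out 1 library, the HEK293-GR dex call was lost in 2 for BIRC3 and in 4 for TNFAIP3. Quantile normalization lost that of TNFAIP3 too. Under dex IRF2BP2 with siIRF2BP2 was at 0.522 of its siNON level in HEK293-GR cells and, by pooled FPKM, at 0.735 in A549 cells. The lines also differ in the length that FPKM is scaled to. The part of these differences was not tested. Groups of 3 libraries were too small to search for a library far from the others.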

How the results depend on the processing

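In HEK293-GR cells the rises of NFKBIA, BIRC3 and TNFAIP3 and the fall of NFKBIZ with dex passed in every alternative run, with both siRNAs. Knockdown under vehicle called 1 member and 2414 of all genes. There voom called 2 members and 2581 genes, and a fit of only the groups compared 0 members and 567 genes. The authors' deposited comparison, chosen after seeing the data, called 0 and 843. Knockdown under dex called 5 members and 6188 of all genes. Quantile normalization called 3 members and 6592 genes, the replicate block 4 and 5480, and a fit of only the groups compared 6 and 7852. Median-of-ratios scaling called 7 members and 6770 genes, and the authors' deposited comparison 7 and 7257. The difference of responses passed for 2 genes, for 22 with pseudocount 1, and for 0 with quantile normalization or the replicate block. Replicate numbers did not pair the libraries (correlations of deviations from -0.377 to 0.261, with 4 of 18 over 0.1); the replicate block changed 1 member call, NFKBIE in knockdown under dex (-0.24). Leaving out 1 library gave 0 to 3 members and 1161 to 4815 genes for knockdown under vehicle, 2 to 6 and 4139 to 7062 for knockdown under dex, 4 to 6 and 1976 to 3909 for dex with siNON, 4 and 1250 to 2055 for dex with siIRF2BP2, and 0 and 0 to 7 for the difference. Signs turned only for values near 0. With quantile normalization these were NFKBIB (-0.0133) and NFKBIE (0.0135) for dex with siNON, CYLD for dex with siIRF2BP2 (-0.0045) and TNFAIP3 in the difference (-0.03). CYLD turned with median-of-ratios scaling too (-0.0244) and in the authors' deposited comparison (-0.0238). On leaving out a library, NFKBIB (-0.0044 to 0.1046) and NFKBIE (-0.0581 to 0.0095) turned for dex with siNON, NFKBIB (-0.1477 to 0.0516), TNIP1 (-0.0311 to 0.1049) and CYLD (-0.0186 to 0.0188) for dex with siIRF2BP2, TNIP1 (-0.0412 to 0.1073) for knockdown under vehicle, and TNFAIP3 (-0.0267 to 0.0856) in the difference. With the pooled FPKM ratio the A549 members' medians for knockdown were -0.0234 with vehicle (deposited by the authors, -0.16), -0.0146 with dex (-0.15), 0.0392 with TNF (-0.06) and 0.2424 with the combination (0.15), and 2.08 (2.36) and 1.99 (2.16) for TNF with siIRF2BP2 and siNON. With each siRNA 7 of the 9 members passed FDR 0.05 for dex added to TNF, and at FDR 0.01 4 of these 7 remained with siIRF2BP2 and 2 with siNON. TNFAIP3, TNIP1 and NFKBIB were lost with both siRNAs (authors' FDR from 0.0105 to 0.0223). NFKBIA (FDR 0.02) and BCL3 (FDR 0.0356) were lost with siNON. No share of all genes at FDR 0.01 is given here. Within 10 kb of the gene start 1 member, BCL3, had a peak under dex and under vehicle, where 1.23% and 1.1% of all genes had one. The cause of these changes was not tested. BCL3 rests on 25 to 54 reads per HEK293-GR library, which limits its precision.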
